A study of Mus musculus with 6 samples.

Results

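Germ-free (GF) mice were compared with specific pathogen free (SPF) mice for the transcriptome of the epithelium that lines the small intestine. GF mice live without any microbiota, and SPF mice are kept free of particular pathogens and, as background, carry an ordinary commensal flora. The comparison took the 4 libraries whose titles carry the prefixes GF-IEC and SPF-IEC, of 6 libraries in the series: SPF replicates 3 and 4 and GF replicates 1 and 3. All were made from total RNA of sorted epithelial cells of C57BL/6 mice, and the labels name no mutation, age, sex, diet composition, time of sampling or pooling of animals. The other 2 libraries, from antigen-free (AF) mice, which lack a microbiota and also receive no foreign antigens in their food, shared the estimate of spread, and their levels are printed beside some genes without a comparison. Genes on chromosomes X and Y were left out, which kept 47731 of the 51912 genes listed, and 13241 of these passed the filter on low counts and were tested.

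Gut bacteria reach the epithelium through their molecules and their fermentation products. Epithelial cells answer through pattern receptors, cytokine signals from immune cells below, and nuclear receptors, and they secrete lectins, oxidants and mucus that keep bacteria off their surface. The same cells absorb fat, sugar, iron and bile acids, carry a circadian clock that is set in part by feeding, and are renewed from crypt stem cells that also give rise to Paneth, goblet, tuft and enteroendocrine cells.

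The 4 libraries held 16917319 to 19417054 expected counts, and a count of 3 stood at 0.109 to 0.206 CPM (counts relative to a normalised library total). Summed levels of 12 defining epithelial markers ran from 8536 to 10408 CPM over the 4 libraries, with none of the 12 at 0. SPF replicate 4 stood apart: the median centred log2 level of the Paneth cell list was -4.84 there against 0.61 in SPF replicate 3, with -2.68 against 0.74 for stem cells and -2.13 against 0.95 for proliferation. The share of counts from mitochondrial genes was 18.1% and 27.2% in SPF and 17.9% and 32.1% in GF, so it varied more within the groups than between them. In bulk RNA, fewer cells of a type and less RNA per cell cannot be told apart. The 23 lymphocyte markers summed to 269.9 and 103.5 CPM in SPF and 47.6 and 440 CPM in GF replicates 1 and 3, with Cd2 at 0 in both GF libraries and in SPF replicate 3 and Cd8b1 at 0 in GF replicate 1. Y-linked transcripts were present in both GF libraries and at 0 in both SPF libraries, so sex and group cannot be told apart for autosomal genes either. Each group's files also bear a date-like mark of their own, and such a date cannot be told apart from the group. Nothing in the labels says that the 2 libraries of a group came from separate animals, so p-values reflect only how far these samples scatter, which may be technical.

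Across the 13241 genes, edgeR's quasi-likelihood test called 0 genes (0%) at a Benjamini-Hochberg adjusted p below 0.05, and the smallest adjusted p was 0.738. With SPF replicate 3 left out the same test called 275 genes higher and 82 lower, and with each of the other 3 GF or SPF libraries left out it called 0. Below an unadjusted p of 0.05 lay 888 genes (6.71%), of which 419 (3.16%) were higher and 469 (3.54%) lower in GF. DESeq2's Wald test called 74 genes at an adjusted p below 0.05 (0.559%), 35 higher and 39 lower, and edgeR's likelihood ratio test called 90 (0.68%), 67 genes being called by both. The genes below are therefore described as higher or lower. Each log2 fold change (GF minus SPF) comes from the quasi-likelihood fit with its standard error (SE), and its adjusted p was 0.738 or above. Genes given with one lay below an unadjusted p of 0.05 unless the text says otherwise. The log2 fold changes had a median of 0.019, with 5% of genes below -0.83 and 5% above 1.47. In 4460 genes (33.7%) both GF libraries lay on one side of both SPF libraries, and with 2 against 2 libraries an exact permutation test cannot go below a two-sided p of 0.333. Many genes named below were taken by a rule that required such a separation, so for them it is part of the choice and adds no support.

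**Figure D1:**
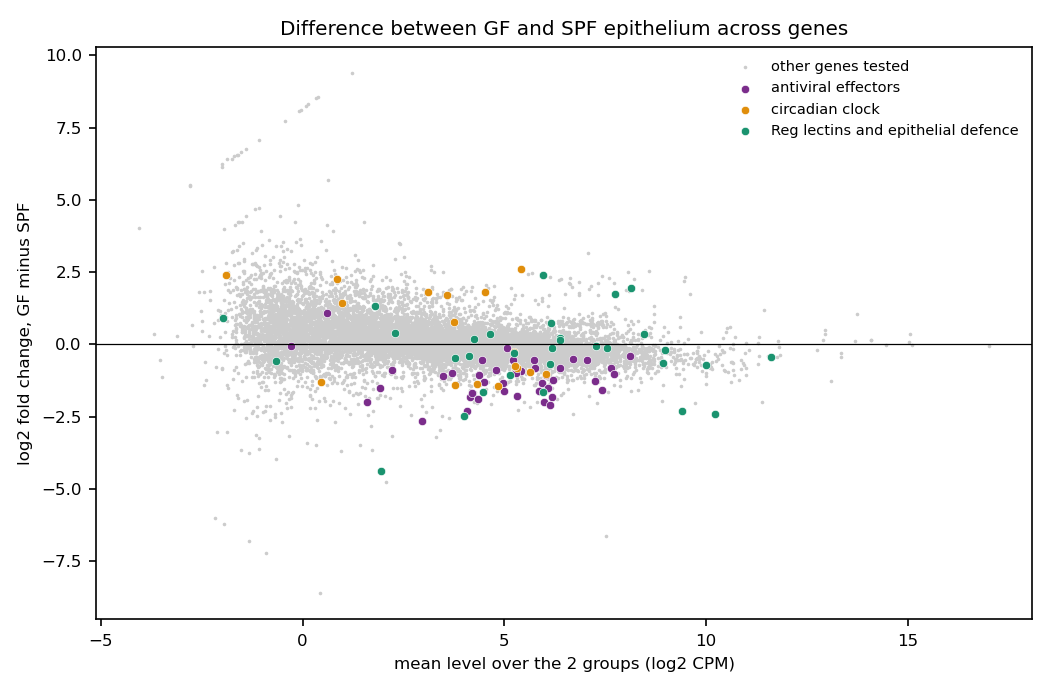
Each point is a gene tested outside chromosomes X and Y, with its mean level over GF and SPF on the horizontal axis (log2 CPM) and its log2 fold change (GF minus SPF) on the vertical axis; antiviral effectors, clock genes, and Reg lectins with epithelial defence genes are coloured. Most of the 41 antiviral effectors lie below 0, and clock genes lie on both sides, up to 2.61 for Nr1d1.

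The spread within SPF was wider than within GF. Levels differed by at least 4-fold between the 2 SPF libraries in 1352 genes (10.2%), 1263 of them lower in SPF replicate 4, and between the 2 GF libraries in 406 genes (3.07%). The group means differed that much in 387 genes (2.92%). In 2612 of the 13241 genes tested the difference between group means was larger than both differences within a group. How many genes would do so without any difference between groups was not tested. When the test was repeated with each of the 4 libraries left out in turn, 151 of the 888 genes (17%; 1.14% of all genes tested) stayed below an unadjusted p of 0.05 each time, 69 higher (0.521%) and 82 lower (0.619%). Those 151 genes held 17 of the 34 interferon response genes at that limit, 9 of 15 clock genes, 4 of 5 epithelial defence genes and 2 of 3 Reg lectins, but none of the 5 fat absorption genes, 5 iron handling genes, 7 proximal enterocyte genes or 4 tuft cell genes.

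Of the 38 gene lists, the circadian clock held the highest share of tested members at an unadjusted p below 0.05, with 15 of 17 genes (8 higher and 7 lower) against 6.71% of all genes. The list names 19 genes, and 2 did not pass the filter on low counts. As background, Clock or Npas2 pairs with Arntl, binds E-box elements and switches on the Per, Cry, Nr1d1 and Nr1d2 genes, whose products in turn repress this pair or the Arntl gene. Nr1d1 acts through a response element of its own, and Dbp, Tef and Hlf compete with the repressor Nfil3 at D-box elements. RefSeq promoter windows (250 bases before to 50 after each start, GRCm38.p6) were found for 14 of the clock genes. The E-box CACGTG stood in 4 of these (28.6%) against 8.11% of 25748 genes with a window, the D-box TTATGNAA in 2 (14.3%) against 4.08%, and the Nr1d1 response element in 1 (7.14%) against 0.458%, each searched on both strands. The windows below show each whole match of the named element in capitals on the gene's own strand, 5′ to 3′, because these elements join the members of the loop.
Arntl Nr1d1 response element (chr7:113207528-113207556, + strand): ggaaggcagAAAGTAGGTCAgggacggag
Per1 E-box (chr11:69098763-69098808, + strand): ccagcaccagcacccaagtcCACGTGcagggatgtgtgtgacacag
Tef E-box (chr15:81802526-81802571, + strand): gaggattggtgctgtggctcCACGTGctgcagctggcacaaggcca
Ciart E-box (chr3:95882261-95882306, - strand): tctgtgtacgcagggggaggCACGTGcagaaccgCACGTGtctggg
Cry1 E-box (chr10:85185089-85185134, - strand): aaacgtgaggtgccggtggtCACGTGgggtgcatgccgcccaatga
Per3 D-box (chr4:151044843-151044890, - strand): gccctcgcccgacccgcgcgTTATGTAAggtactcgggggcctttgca
The E-boxes of Per1, Tef, Ciart and Cry1 began 166, 127, 58 and 60 bases before the annotated start. Ciart held 3 E-boxes in its promoter window, of which 2 are in the stretch shown, and the Nr1d1 response element of Arntl began 27 bases after its start. The windows of Nr1d1, Nr1d2, Dbp, Nfil3, Cry2, Clock, Npas2 and Hlf held none of these elements, which says only that those letters are not in them. A match describes letters only, and Per1 and Cry1, which both carry the E-box, had opposite signs.

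The nuclear receptor Nr1d1, a repressor of Arntl (ENSMUSG00000020889, chromosome 11, 98767932 to 98775333, GRCm38), measured 7.1 and 16.9 CPM in SPF and 76.9 and 68.6 CPM in GF. The groups were far apart, with both GF libraries at least 4 times as high as the higher SPF library (log2 fold change 2.61, SE 0.43, DESeq2 adjusted p = 6.19e-05). Its paralog Nr1d2 measured 2.52 and 5.21 CPM against 15.3 and 11.6 CPM (log2 fold change 1.81, SE 0.40), likewise without overlap. The activator gene Arntl, their target, was on the other side at 43.7 and 57.3 CPM in SPF and 25.1 and 32.3 CPM in GF (log2 fold change -0.82, SE 0.23). Npas2, a partner of Arntl, measured 35.4 and 61.8 CPM against 27.2 and 30 CPM (log2 fold change -0.77, SE 0.29). Both GF libraries were below both SPF libraries for this pair of activators. Clock itself, at 36.4 and 46.4 CPM against 38.8 and 29.9 CPM, overlapped between the groups.

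The repressors of the negative limb divided. Per1 measured 14.3 and 5.97 CPM against 27.8 and 44 CPM (log2 fold change 1.81, SE 0.44). Per3 measured 1.28 and 0.823 CPM against 2.88 and 2.85 CPM (log2 fold change 1.43, SE 0.46). These period genes were higher in GF, and the next genes of the negative limb were lower. Per2 measured 26.6 and 30.6 CPM against 8.38 and 13.8 CPM (log2 fold change -1.37, SE 0.30). Cry1, a cryptochrome, measured 17.8 and 21.7 CPM against 5.07 and 10 CPM (log2 fold change -1.39, SE 0.38). Cry2 was higher (log2 fold change 0.78, SE 0.30). Bhlhe40, another repressor that binds E-boxes, was lower (log2 fold change -1.03, SE 0.22). None of these 6 genes overlapped between groups, beside 33.7% of all genes that did not. Among the output factors, Tef measured 5.08 and 6.04 CPM in SPF and 18.3 and 18 CPM in GF (log2 fold change 1.71, SE 0.30) and Dbp 0.733 and 0.48 CPM against 3.17 and 2.78 CPM (log2 fold change 2.27, SE 0.47). Nfil3, which opposes them at D-boxes, measured 38.5 and 45.4 CPM in SPF and 12.2 and 18.7 CPM in GF (log2 fold change -1.45, SE 0.26). D-box activators were thus higher and the D-box repressor lower in the same GF libraries, except Hlf at 1.1 and 2.81 CPM against 0.802 and 0.746 CPM. With each library left out in turn the log2 fold change ran from 2.10 to 3.35 for Nr1d1, 2.01 to 2.61 for Dbp and -1.78 to -1.17 for Nfil3. In the AF libraries Nr1d1 measured 140.1 and 117 CPM, Dbp 3.93 and 3.74 CPM, Per2 12.9 and 15.6 CPM and Nfil3 22.1 and 25.5 CPM. No hour of sampling is stated for any group, so hour and microbiota cannot be told apart. Dbp overlaps the far more abundant Sphk2, and Nr1d1 overlaps Thra, both on the opposite strand. With no strand setting given, shared reads cannot be assigned, and Thra had a log2 fold change of 0.38 (SE 0.22) and Sphk2 one of -0.25 (SE 0.28), neither below an unadjusted p of 0.05.

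**Figure D2:**
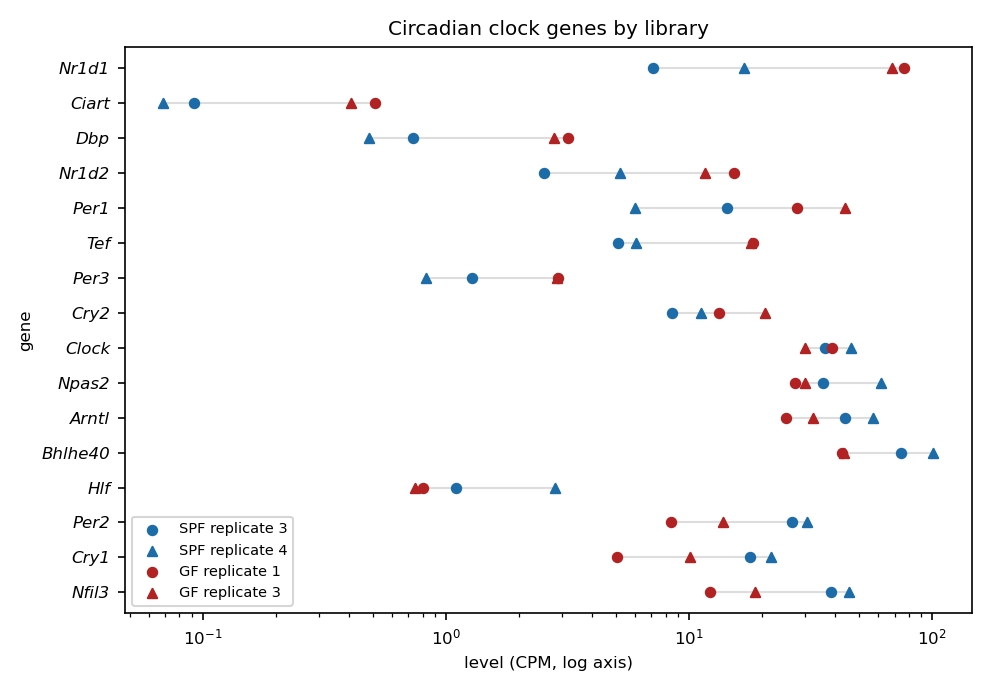
Levels (CPM, log axis) of 16 tested clock genes in each SPF library (blue) and GF library (red), ordered by log2 fold change. Colours separate fully for every gene but Clock, with Nr1d1, Ciart, Dbp, Nr1d2, Per1, Tef, Per3 and Cry2 higher in GF.

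Reg3g and Reg3b were lower in GF, and other secreted defence proteins were not lower as a group: of 6 Reg lectins tested 3 were lower and 3 higher, and of 7 other secreted antimicrobial proteins 3 were lower and 4 higher. Reg3g and Reg3b are secreted lectins of enterocytes and Paneth cells, and Reg3g acts on Gram-positive bacteria. Reg3g (ENSMUSG00000030017, chromosome 6, 78466269 to 78468872) measured 1576 and 686 CPM in SPF and 216 and 237 CPM in GF, and Reg3b (ENSMUSG00000071356, chromosome 6, 78370657 to 78373466) measured 2962 and 1076 CPM in SPF and 342 and 418 CPM in GF. For both, the lower SPF library, replicate 4, was still over 2 times the higher GF library. Reg3g had a log2 fold change of -2.32, SE 0.47, with a DESeq2 adjusted p of 0.000164. Reg3b had one of -2.41, SE 0.56, with a DESeq2 adjusted p of 0.00107. Reg4, a lectin of enteroendocrine cells, went the other way at 152 and 47.5 CPM against 223 and 438 CPM (log2 fold change 1.73, SE 0.67). For Reg4, SPF replicate 4, which stood apart in Paneth cell markers, was the lowest of the SPF and GF libraries. GF replicate 1 lay nearer to SPF replicate 3 than to GF replicate 3. Of the 6 Reg lectins tested, these 3 lay below an unadjusted p of 0.05, against 6.71% of all genes, and the others overlapped between groups. In AF the levels were 30.9 and 38.4 CPM for Reg3g and 128 and 169 CPM for Reg3b.

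Of 25 epithelial defence genes tested, of 36 listed, 16 were lower and 9 higher in GF (median -0.19). Below an unadjusted p of 0.05 lay 5, all of them lower, against 3.54% of all genes. Nos2, the inducible nitric oxide synthase, measured 42 and 24.6 CPM in SPF and 12.5 and 8.75 CPM in GF (log2 fold change -1.64, SE 0.36). Duox2, a hydrogen peroxide producing oxidase of the apical membrane, measured 115 and 74 CPM in SPF and 18.7 and 42 CPM in GF (log2 fold change -1.64, SE 0.46), and its maturation factor Duoxa2 31.2 and 22.9 CPM against 2.22 and 7.53 CPM (log2 fold change -2.49, SE 0.85). The SPF libraries lay above the GF libraries for all 3 enzymes and cofactors. Saa1, a serum amyloid A that epithelium makes in response to attached bacteria, was low throughout at 10.2 and 4.32 CPM in SPF and 0.0729 and 0.678 CPM in GF (log2 fold change -4.38, SE 1.08). GF replicate 1 was under the level of 3 counts for Saa1, so its fold rests on few reads. Il18, an inflammasome cytokine, measured 44.1 and 50.2 CPM in SPF and 25 and 20.6 CPM in GF (log2 fold change -1.05, SE 0.20), and in AF 39.9 and 44.1 CPM. Il18 had the smallest p of the list and lay apart between groups, though it overlaps the more abundant Bco2 on the opposite strand, which was not below an unadjusted p of 0.05 (log2 fold change -0.39, SE 0.24). Pigr, the receptor that carries immunoglobulin A into the lumen, measured 3155 and 4064 CPM against 2665 and 2679 CPM (log2 fold change -0.43, SE 0.42, not below an unadjusted p of 0.05).

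Alpk1 and its adaptor Tifa, which sense a bacterial sugar, ADP-heptose, in the cytosol, were singled out after their values were seen. Alpk1 measured 19.3 and 10.7 CPM in SPF and 2.95 and 3.8 CPM in GF (log2 fold change -2.16, SE 0.50, DESeq2 adjusted p = 0.022). Tifa measured 39.2 and 19.7 CPM in SPF and 8.24 and 9.43 CPM in GF (log2 fold change -1.74, SE 0.36, DESeq2 adjusted p = 0.0206). Both GF libraries were below both SPF libraries for this receptor and adaptor, and both genes stayed below an unadjusted p of 0.05 with each library left out. Tifa overlaps Ap1ar on the opposite strand, which was not below that limit (log2 fold change -0.28, SE 0.21). In the list of other pattern receptors and adaptors, 3 of 16 tested genes were lower at that limit, against 3.54% of all genes. They were the RNA sensor Ifih1 (log2 fold change -1.08, SE 0.35), its relative Ddx58 and their adaptor Mavs. Higher at that limit was 1 gene, the NF-kappaB inhibitor Nfkbia (log2 fold change 0.54, SE 0.19), against 3.16% of all genes.

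The cell surface of enterocytes carries glycans that bacteria bind and consume. Of 17 genes of the surface glycan list, 14 were lower in GF, beside 6406 of all 13241 genes, and 2 were lower at an unadjusted p below 0.05, against 3.54% of all genes. B3gnt7, which extends poly-lactosamine and keratan sulfate chains, measured 45.9 and 32.2 CPM in SPF and 15.2 and 13 CPM in GF (log2 fold change -1.47, SE 0.25), and the membrane mucin Muc13 2083 and 2361 CPM in SPF and 915 and 1239.5 CPM in GF (log2 fold change -1.04, SE 0.37). Neither overlapped between groups. Gal3st2, a sulfotransferase of mucin glycans outside that list and named after its values were seen, measured 146 and 275 CPM against 53.4 and 69.5 CPM (log2 fold change -1.77, SE 0.39). Fut2, a fucosyltransferase of the apical surface, overlapped between the groups at 4.95 and 1.37 CPM against 2.99 and 5.97 CPM (log2 fold change 0.48, SE 0.67, not below an unadjusted p of 0.05).

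**Figure D3:**
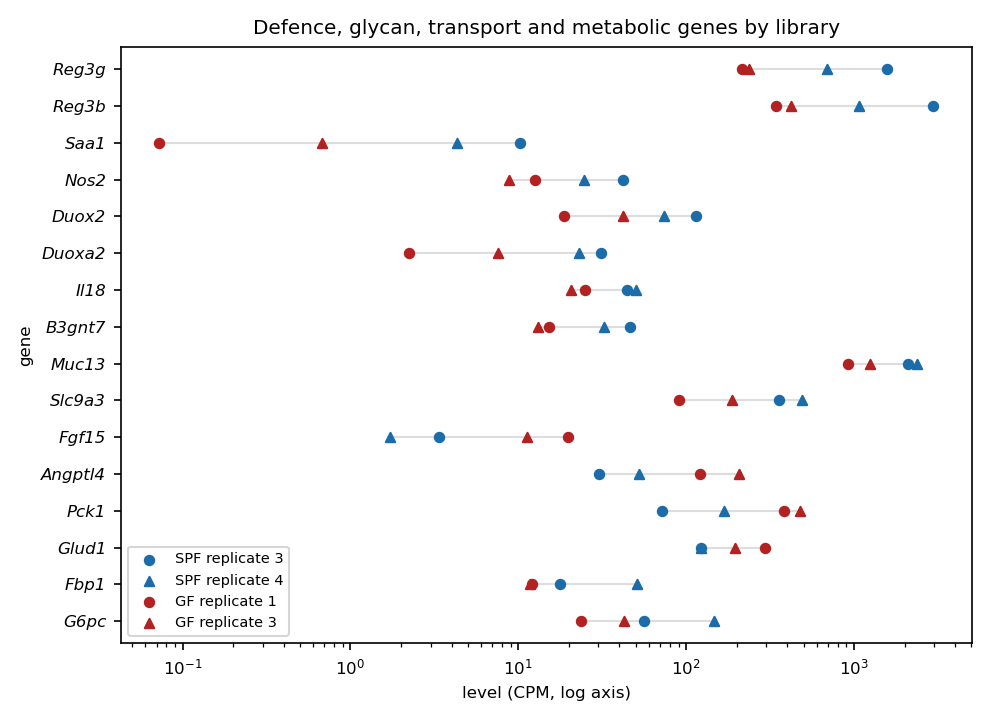
Levels (CPM, log axis) of 16 genes of defence, surface glycans, ion transport and metabolism in each SPF library (blue) and GF library (red). Reg3g to Slc9a3 are higher in both SPF libraries, Fgf15 to Glud1 in both GF libraries, and Fbp1 and G6pc again in SPF.

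Interferon response genes were lower in GF as a group. These are genes that cells switch on after interferon receptors signal to transcription factors that bind the interferon-stimulated response element (ISRE). Of 70 tested members, of 75 listed, 64 were lower, 34 of them at an unadjusted p below 0.05 against 3.54% of all genes, with 0 higher at that limit and a median log2 fold change of -0.94. DESeq2 called 7, all lower. By role, 29 of 41 antiviral effectors were lower at that limit, 5 of 13 GTPases and 0 of 16 receptors and signalling genes. A pair of GAAA words 2 bases apart, taken here as the ISRE and searched on both strands, stood in the promoter windows of 17 of 31 antiviral effectors with a window (54.8%) against 4.02% of 25748 genes. Windows with this element in capitals are shown for 4 effectors whose levels follow, on the gene's strand from 5′ to 3′. A run of capitals longer than the motif holds overlapping matches.
Isg15 ISRE (chr4:156200855-156200916, - strand): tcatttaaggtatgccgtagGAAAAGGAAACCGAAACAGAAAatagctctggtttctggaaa
Bst2 ISRE (chr8:71537567-71537622, - strand): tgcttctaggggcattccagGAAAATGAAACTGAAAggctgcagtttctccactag
Ddx60 ISRE (chr8:61928014-61928063, + strand): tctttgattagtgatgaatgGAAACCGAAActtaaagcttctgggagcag
Ifit1 ISRE (chr19:34640765-34640814, + strand): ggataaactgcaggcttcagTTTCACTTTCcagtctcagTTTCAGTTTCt
In Ifit1 both matches are on the opposite strand, so the capitals show their complement on the gene's strand. Ifi44, which had the smallest p of the group, has a window without the sequence, which says only that those letters are not in it.

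Ifi44, an interferon-induced gene (ENSMUSG00000028037, chromosome 3, 151730922 to 151749960), measured 14.6 and 12.3 CPM in SPF and 1.42 and 2.92 CPM in GF (log2 fold change -2.65, SE 0.44, DESeq2 adjusted p = 0.000233). Isg15, a ubiquitin-like modifier, measured 79.4 and 145 CPM in SPF and 18 and 45.5 CPM in GF (log2 fold change -1.83, SE 0.51). Oas2, a synthetase of antiviral oligoadenylates, measured 101 and 127 CPM in SPF and 14.8 and 38.9 CPM in GF (log2 fold change -2.09, SE 0.48). In all 3, GF replicate 1 was the lowest library and GF replicate 3 also lay below both SPF libraries. Ddx60, an RNA helicase, measured 80.1 and 120.3 CPM against 25.1 and 45.8 CPM (log2 fold change -1.50, SE 0.37), and Bst2, a tether of budding virions, 15.8 and 14.5 CPM against 6.49 and 7.6 CPM (log2 fold change -1.10, SE 0.24). Rsad2, the antiviral enzyme viperin, measured 16.7 and 39.4 CPM against 3.14 and 8.21 CPM (log2 fold change -2.32, SE 0.59), and Slfn2 26.8 and 36.7 CPM against 5.61 and 11.8 CPM (log2 fold change -1.88, SE 0.40). Groups did not overlap in any of these 7 genes, but they are a chosen part of the list, so this adds no support. Of the 41 tested antiviral effectors, 33 had both GF libraries below both SPF libraries, beside 2267 of all 13241 genes. Among GTPases that act on vacuoles holding pathogens, Gbp3 measured 8.52 and 8.78 CPM against 1.13 and 2.92 CPM and Irgm1 40 and 34 CPM against 17.6 and 22.5 CPM, with log2 fold changes of -2.12 (SE 0.50) and -0.88 (SE 0.22). Igtp measured 76.7 and 121 CPM against 17.1 and 58 CPM (log2 fold change -1.40, SE 0.56), with the GF libraries further from each other than GF replicate 3 was from SPF replicate 3, and Gbp7 6.92 and 7.75 CPM against 1.71 and 5.97 CPM (log2 fold change -0.95, SE 0.60, not below an unadjusted p of 0.05).

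GF replicate 1 lay lower than GF replicate 3 in this list, with a centred median log2 level of -0.91 against -0.02, and SPF replicates 3 and 4 stood at 0.32 and 0.84. Leaving out GF replicate 1 gave the list a median log2 fold change of -0.53, and leaving out GF replicate 3 one of -1.55. It was -1.15 and -0.67 without SPF replicates 3 and 4. The summed lymphocyte markers, at 47.6 and 440 CPM in GF replicates 1 and 3, moved with the list within GF. Within SPF they did not, the markers being lower and the list higher in replicate 4 than in replicate 3. The part of lymphocytes in the list was not tested. Members that sit side by side in the genome were lower together, and the longest run also held genes outside the list. On chromosome 19 from 34492318 to 34650009, 7 consecutive tested genes were all lower at an unadjusted p below 0.05: Lipa, Ifit2, Ifit3, Ifit1bl1, Ifit3b, Ifit1bl2 and Ifit1. Lipa, Ifit1bl1 and Ifit1bl2 are not members of the list. Lipa, a lysosomal lipase, measured 36 and 121 CPM against 28.3 and 31 CPM, with SPF replicate 4 alone far above the rest. Ifit1 measured 65.3 and 137 CPM in SPF and 16.2 and 34.4 CPM in GF (log2 fold change -2.0, SE 0.49) and Ifit1bl1 140.3 and 208 CPM against 15.3 and 50 CPM (log2 fold change -2.42, SE 0.57). Shorter runs were Oas1b, Oas1g and Oas1a on chromosome 5, and Gm12250, Igtp and Irgm2 on chromosome 11. The Ifit and Oas1 copies are similar to one another, so RSEM may have split their reads. Igtp and Irgm2 overlap on the same strand, so they may not be separate observations.

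**Figure D4:**
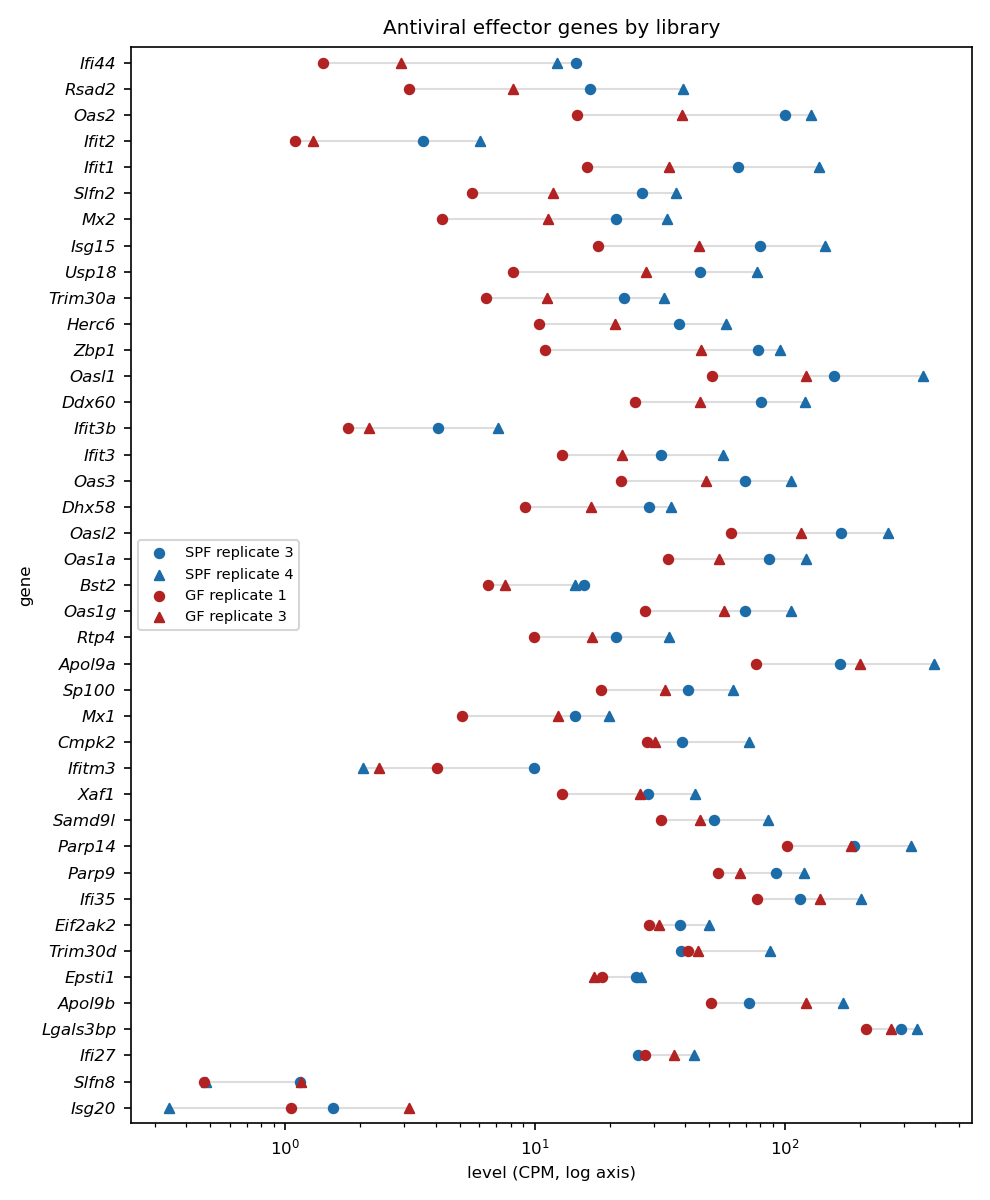
Levels (CPM, log axis) of the 41 tested antiviral effectors in each SPF library (blue) and GF library (red), ordered by log2 fold change from the most negative. From Ifi44 down to Rtp4, GF replicate 1 (red circles) is the lowest library and both GF libraries lie below both SPF libraries.

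Presentation genes shared the spread of the GF libraries. All 7 tested MHC class II genes were lower in GF with a median of -1.18, but 0 reached an unadjusted p of 0.05. With GF replicate 1 left out the median was -0.32, and with GF replicate 3 left out -3.71. Ciita, the class II transactivator, was not below that limit either (log2 fold change -1.23, SE 0.66). MHC class II genes summed to 35.6 and 481 CPM in GF replicates 1 and 3, the latter being the library with the higher lymphocyte markers. In SPF replicates 3 and 4 the class II genes summed to 536 and 702 CPM, the latter being the library with the lower lymphocyte markers. The part of lymphocytes in this was not tested. Of 28 MHC class I genes 25 were lower (median -0.60), 3 at an unadjusted p below 0.05 against 3.54% of all genes. Their median was -0.24 without GF replicate 1 and -0.29 without SPF replicate 4. Nlrc5, the class I transactivator, had a log2 fold change of -2.03 (SE 0.95), not below that limit, and Tap1, a peptide transporter subunit, one of -0.97 (SE 0.40). None of the 3 genes at that limit stayed there with each library left out.

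Metabolic genes split within their pathways. Angptl4, a secreted inhibitor of lipoprotein lipase (ENSMUSG00000002289, chromosome 17, 33773750 to 33781830), measured 30.1 and 52.1 CPM in SPF and 120.3 and 206 CPM in GF (log2 fold change 1.99, SE 0.42, DESeq2 adjusted p = 0.00877), and AF measured 49.7 and 32.9 CPM. The rest of the 24 tested PPAR and fasting genes mostly went the other way, 21 being lower with a median of -0.61, which was -0.23 without SPF replicate 4. A fit that adjusts for crypt markers gave -0.33. Among them Cpt2, a carnitine palmitoyltransferase, measured 93.3 and 134 CPM against 65 and 73.2 CPM (log2 fold change -0.72, SE 0.26). In gluconeogenesis, Pck1, the cytosolic phosphoenolpyruvate carboxykinase, measured 72 and 167 CPM in SPF and 379.8 and 474 CPM in GF (log2 fold change 1.84, SE 0.48). Glud1, glutamate dehydrogenase, was also higher in GF at 122 and 123 CPM against 293 and 195 CPM (log2 fold change 0.99, SE 0.28). The last steps were lower. Fbp1, fructose bisphosphatase, measured 17.8 and 51.2 CPM against 12 and 11.8 CPM (log2 fold change -1.53, SE 0.47). G6pc, the phosphatase that releases free glucose, measured 56.1 and 147 CPM against 23.6 and 42.5 CPM (log2 fold change -1.62, SE 0.51). For Fbp1 and G6pc, SPF replicate 4 was the highest of the SPF and GF libraries and SPF replicate 3 lay nearer to GF. The median of the gluconeogenesis list, -0.11, was 0.15 without SPF replicate 4. None of these 4 genes overlapped between groups, but they were taken for the smallest p of the list, so this adds no support. Of the 10 genes tested in the list, 3 were apart and higher and 2 apart and lower, beside 33.7% of all genes in either direction. In AF Pck1 measured 113 and 70.8 CPM and Fbp1 40.7 and 42.9 CPM.

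Fgf15, the hormone by which ileal enterocytes curb bile acid synthesis in the liver (ENSMUSG00000031073, chromosome 7, 144896531 to 144900953), measured 3.39 and 1.71 CPM in SPF and 19.7 and 11.3 CPM in GF (log2 fold change 2.58, SE 0.51, DESeq2 adjusted p = 0.00198). It was higher in both GF libraries, also with each library left out in turn (2.12 to 3.17). The ileal bile acid importer Slc10a2 measured 6.37 and 3.02 CPM against 21.6 and 6.72 CPM (log2 fold change 1.59, SE 0.63), GF replicate 3 lying next to SPF replicate 3. The ileal bile acid binding protein Fabp6, at 356 and 190.5 CPM against 904 and 237 CPM, overlapped between groups (log2 fold change 1.06, SE 0.68, not below an unadjusted p of 0.05). Of the 8 tested genes of ileal bile acid handling, 4 were higher and 4 lower, with a median of -0.011. The groups were apart for 2 of the higher and 3 of the lower genes, beside 33.7% of all genes in either direction. Of 10 other distal markers 7 were higher and 3 lower. Among the higher genes of the list were the brush border protease Mep1a at 101 and 119.9 CPM against 244 and 192 CPM (log2 fold change 0.98, SE 0.28) and the transcription factor Osr2 (log2 fold change 0.76, SE 0.21). Of 18 distal and bile acid genes together 11 were higher. At an unadjusted p below 0.05, 5 were higher, against 3.16% of all genes, and 0 were lower. Their median of 0.20 was -0.030 without GF replicate 3. Of 19 proximal genes 15 were lower, 7 at an unadjusted p below 0.05 against 3.54% of all genes. The proximal median of -0.76 was -0.29 without SPF replicate 4. The segments of intestine taken for each library are not given beyond small intestine, so a difference in region and one in group cannot be told apart.

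Absorptive gene lists were lower in GF, by less when SPF replicate 4 was left out. Of the tested genes lower in GF there were 20 of 21 for fat absorption (median -0.68), 13 of 13 for sugar digestion (-0.71), 11 of 13 for iron handling (-0.89) and 38 of 44 for xenobiotic metabolism (-0.59). Without SPF replicate 4 these medians were -0.12, -0.29, -0.34 and 0.078, the last on the other side of 0. Fabp1, a fatty acid carrier, measured 1495 and 2948 CPM in SPF and 847 and 971 CPM in GF (log2 fold change -1.29, SE 0.47), and Apoa4, a chylomicron protein, 6933 and 17985 CPM against 3344 and 6903 CPM (log2 fold change -1.28, SE 0.76, not below an unadjusted p of 0.05). Slc40a1, the iron exporter ferroportin, measured 62.5 and 157 CPM in SPF and 24.9 and 36.7 CPM in GF (log2 fold change -1.83, SE 0.47). The cytochrome Cyp3a11, which metabolises drugs, measured 332 and 1196 CPM against 176 and 218 CPM (log2 fold change -1.96, SE 0.61). In each, SPF replicate 4 was the highest library and SPF replicate 3 lay nearer to GF. Cyp1a1, a target of the aryl hydrocarbon receptor, overlapped at 6.92 and 32.4 CPM against 34.6 and 29.7 CPM (log2 fold change 0.72, SE 0.71, not below an unadjusted p of 0.05), and Isx, a regulator of vitamin A uptake, was at 71.4 and 94.9 CPM against 81.1 and 82 CPM (log2 fold change -0.028, SE 0.25, not below an unadjusted p of 0.05) beside 1.34 and 0.832 CPM in AF. Slc9a3, the sodium-proton exchanger of the brush border, measured 355 and 491 CPM in SPF and 91.2 and 187 CPM in GF (log2 fold change -1.60, SE 0.41) and was below that limit with each library left out. Cholesterol synthesis went the other way. In that list Tm7sf2 overlaps the more abundant Vps51 on the same strand and Fdft1 the more abundant Ctsb on the opposite strand. Shared reads cannot be assigned. Of 22 genes 20 were higher (median 0.65, 0.26 without GF replicate 1 and 0.36 without SPF replicate 4). Of these Tm7sf2 and Fdft1 were below an unadjusted p of 0.05, against 3.16% of all genes, and neither stayed there with each library left out.

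Secretory and crypt lists were higher in GF by their medians, beside the low level of the same markers in SPF replicate 4. All 27 tested enteroendocrine genes were higher (median 1.70), 9 at an unadjusted p below 0.05 against 3.16% of all genes, and 1 of the 9 stayed there with each library left out. Of 19 tuft cell genes 18 were higher (median 1.61), 4 at that limit, and 0 of the 4 stayed there. Without SPF replicate 4 these medians were 0.96 and 0.87. Iapp, amylin, measured 1.56 and 0.137 CPM against 11.1 and 8.68 CPM (log2 fold change 3.47, SE 0.89), and Sst, somatostatin, 50.1 and 3.43 CPM against 238 and 244 CPM (log2 fold change 3.17, SE 1.10). Chga, chromogranin A of endocrine granules, measured 221 and 70 CPM against 298 and 764 CPM, and Dclk1, a tuft cell kinase, 2.75 and 0.96 CPM against 5.8 and 6.38 CPM. SPF replicate 4 was the lowest library for these 4 genes, and both GF libraries were also above SPF replicate 3. The Paneth cell list had a median of 2.14, which was 1.22 without SPF replicate 4 and 0.43 without GF replicate 1. The stem cell list had 13 of 14 genes higher (median 0.67) and 0 at that limit, with a median of -0.18 without SPF replicate 4 and -0.21 without GF replicate 1. The sign turned for goblet cells and proliferation too. The goblet median of 0.19 was -0.68 without SPF replicate 4 and -0.037 without GF replicate 1. The proliferation median of 0.25 was -0.51 and -0.39 in the same fits.

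**Figure D5:**
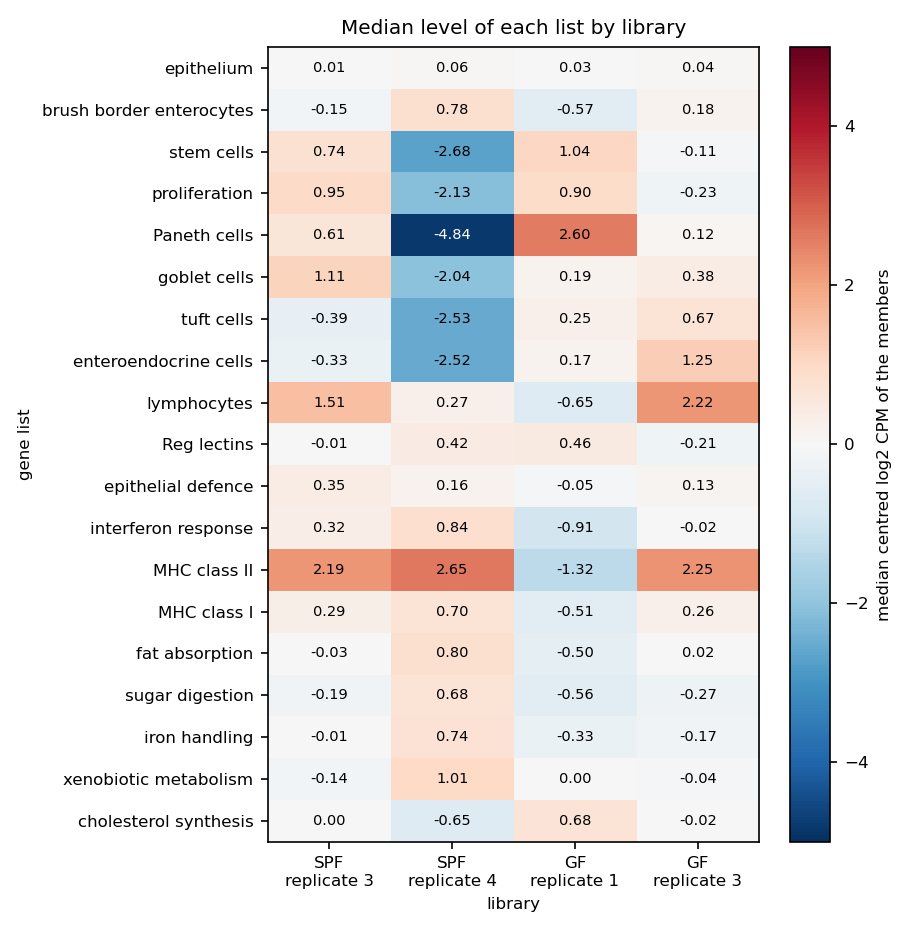
Median centred log2 CPM of the tested members of 19 gene lists (rows) in the 4 libraries (columns), centred gene by gene over all 6 libraries; red is above and blue below the mean. SPF replicate 4 is at -4.84 for Paneth cells, and GF replicate 1 at -1.32 for MHC class II beside 2.25 in GF replicate 3.

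Genes outside these lists were among those with the smallest p. Fam43a measured 1.33 and 0.892 CPM in SPF and 5.91 and 11.4 CPM in GF (log2 fold change 2.94, SE 0.47), and Ndrg1, a stress-responsive gene of differentiation, 32.3 and 28.6 CPM in SPF and 109 and 75.5 CPM in GF (log2 fold change 1.60, SE 0.27). Trp53inp1, a p53-inducible regulator of autophagy, measured 4.76 and 3.36 CPM against 10.2 and 10.4 CPM (log2 fold change 1.34, SE 0.29). These 3 were higher in both GF libraries. Rogdi, Cutal, Plbd1, Ccnj, Cnbd2 and Tmigd1 were likewise higher (Cutal and Cnbd2 overlap more abundant genes on the opposite strand), with log2 fold changes from 0.95 to 2.10. Ugt1a9 was higher too (log2 fold change 1.97, SE 0.39), but it shares exons with the other Ugt1a genes and is uncertain. On the lower side, Sema6d, a semaphorin, measured 38 and 45.3 CPM in SPF and 18.4 and 17.7 CPM in GF (log2 fold change -1.20, SE 0.19), and Mfsd4a, a sugar transporter family member, 23.2 and 19.8 CPM against 8.42 and 8.14 CPM (log2 fold change -1.37, SE 0.22). Ero1lb, an oxidase of the endoplasmic reticulum, measured 12.6 and 24.2 CPM against 3.75 and 2.85 CPM (log2 fold change -2.47, SE 0.40). Slc16a6, a monocarboxylate transporter, measured 54.8 and 108 CPM against 14.8 and 21.8 CPM (log2 fold change -2.15, SE 0.38), and Afm, a vitamin E binding protein, 3.98 and 12.3 CPM against 0.255 and 0.339 CPM (log2 fold change -4.76, SE 0.89). Both SPF libraries were above both GF libraries in all 5. Mfsd4a overlaps the more abundant Elk4 on the opposite strand, which was not below an unadjusted p of 0.05 (log2 fold change -0.12, SE 0.25). Paqr9, Abhd3, Atp10b, Exph5, Unc5cl and Phf11d were lower as well, from -3.20 for Paqr9 to -1.12 for Atp10b.

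The largest folds among genes at 10 CPM or more included C4b, complement component 4, at 16.6 and 21 CPM against 0.875 and 4.14 CPM (log2 fold change -2.95, SE 0.69), and Ubd, a ubiquitin-like modifier, at 8.93 and 12.6 CPM against 0.365 and 3.73 CPM (log2 fold change -2.43, SE 0.97). Slc19a3, a thiamine transporter, measured 7.56 and 34.8 CPM against 4.3 and 2.92 CPM (log2 fold change -2.54, SE 0.72), with SPF replicate 4 far above the rest. Higher in GF were Ambp, the precursor of bikunin, at 23.4 and 8.09 CPM against 42.7 and 131 CPM (log2 fold change 2.46, SE 0.69), and its neighbour Kif12 at 3.07 and 0.686 CPM against 7.62 and 12.4 CPM (log2 fold change 2.38, SE 0.68). Prss23, Resp18 and Tpbg were also higher, with log2 fold changes of 2.70 (SE 1.02), 2.49 (SE 0.62) and 2.32 (SE 0.68). Ambp, Kif12 and Col27a1 formed 1 of 10 runs of at least 3 neighbouring tested genes that all lay below an unadjusted p of 0.05 in the same direction.

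A few genes were counted in one group alone. BC035947 had 0 counts in both SPF libraries and 103 and 82 counts in GF, which is at least 53.3-fold higher against a level of 3 counts over the group. Mogat1, a monoacylglycerol acyltransferase, had 0 counts in SPF and 30 and 46 counts in GF, at least 21.9-fold higher. Both were also counted in AF, at 108 and 46 counts for BC035947 and 33 and 18 counts for Mogat1. The ends of these genes overlap on opposite strands of chromosome 1, so reads in the overlap cannot be assigned and they may not be separate observations. Of 6 autosomal genes at 0 in one group and at 20 counts or more in each library of the other, the remaining 4 had an RSEM posterior standard deviation of at least 25.7% of the count and are uncertain. These genes were chosen after their values were seen.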

How the data were processed

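Sorted epithelial cells of the small intestine were profiled by RNA-seq, with RNeasy extraction and TruSeq RNA libraries from total RNA, per the labels' protocols. Per the submitters' processing notes, GRCm38/mm10 was the build, and the tools included RSEM, STAR 2.5.2b and edgeR 3.16.5. The sources used here do not state the annotation release, read filters or strand setting. Each library's table holds expected counts per gene as deposited by the authors, in which RSEM splits reads that match several genes, with no scaling between libraries, per the file headers. The authors also deposited TPM values, which correct for effective length and sum alike in every library, and a posterior standard deviation of each count. 

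For the tests these counts were rounded (23.5% of values above 0 were not whole). Of 51912 identifiers 51719 matched a symbol in GENCODE M21, the source of symbols and 1-based coordinates. filterByExpr at its defaults kept 13644 genes in all 6 libraries, 403 of them on chromosomes X and Y, which stayed in the fit and adjustment and are neither counted nor named. Genes were tested by quasi-likelihood F tests in edgeR with TMM scaling (factors 0.791 to 1.41), all 6 libraries in 1 fit and Benjamini-Hochberg adjustment over 13644 genes. This left 3 residual degrees of freedom and a common biological coefficient of variation of 0.368. A standard error is the fold change on the log2 scale over the root of F. CPM were computed on totals scaled by TMM, and 1 count was worth 0.0365 to 0.0785 CPM. Bounds cover counting error only.

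Lists were described by counts and medians with no test of their own. The members, the lists and the rule for named genes were chosen with earlier results of these data known. The rule took up to 15 autosomal genes per direction with the smallest p and up to 8 with the largest fold, among genes below an unadjusted p of 0.05 with groups apart and a group mean of at least 5 or 10 CPM. It added up to 4 genes per list, a set of genes in any case, and the 5 genes per group with the largest ratio between its libraries; not all of these are printed, and some are not reported here. Predicted genes were not taken by p or fold. Promoter windows came from RefSeq (GRCm38.p6). Alternatives were other scalings, tests, filters and gene sets, limma on log2(TPM + 1), a crypt score as a covariate and each library left out. The code was tested on simulated counts. Software was DESeq2 1.42.0, limma 3.58.1 and edgeR 4.0.16, run in R 4.3.3.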

Additional observations from a re-analysis of the deposited data

Results flagged for a closer look

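Chromosomes X and Y were outside the comparison, and their transcripts differed between the groups. The Y-linked genes Ddx3y, Eif2s3y, Kdm5d and Uty summed to 61.7 and 52.2 CPM in GF replicates 1 and 3, against 0 CPM in both SPF libraries, the control level. Xist, the X-inactivation RNA, measured 129.7 and 96.6 CPM in SPF and 0.109 and 14.8 CPM in GF, so that GF replicate 3 held both kinds of transcript. With 2 libraries a group, no gap test for an outlying sample applies.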

How the results depend on the processing

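No paired analysis was possible because GF and SPF share only the replicate number 3. At an adjusted p below 0.05 the fit of all 6 libraries called 0 genes higher and 0 lower. DESeq2 called 35 and 39, the likelihood ratio test 47 and 43, the fit with no low-count filter 265 and 201 of 21991 genes, and limma on TPM 3 and 1. With 1 library left out, the lone sample of its group is assumed to vary like the others, and calls ran from 0 to 275 higher and from 0 to 82 lower, the highest counts without SPF replicate 3. Below an unadjusted p of 0.05, where that fit had 419 higher and 469 lower, the counts were 209 and 252 with library totals alone, 1037 and 819 with no low-count filter, 174 and 274 with limma, and 205 and 206 with only the GF and SPF libraries. With the crypt score as a covariate 672 were higher. Leaving out 1 library gave 174 to 2431 higher and 158 to 1484 lower. Library totals alone moved the median log2 fold change of all genes from 0.019 to 0.155. The sign changed for Cyp1a1 (-0.015 to 2.21 with 1 library left out, lowest without SPF replicate 3), Fabp6 (-0.21 to 1.72, lowest without GF replicate 1) and Fut2 (-0.16 to 1.68, lowest without SPF replicate 4, and -0.095 without GF replicate 3). The ranges were -1.83 to 2.09 for AY036118 and -1.78 to 1.94 for CT010467.1, both lowest without GF replicate 3, and -0.64 to 11 for Defa21, lowest without GF replicate 1. It also changed for Isx (0.16 with library totals alone, 0.021 with limma, 0.0055 with only GF and SPF libraries, 0.17 with the crypt score, -0.22 to 0.18 with 1 library left out, highest without SPF replicate 4). Of genes named for their overlap, it changed for Elk4 (0.046 with library totals alone, 0.16 with the crypt score, -0.38 to 0.17 with 1 library left out) and Sphk2 (0.058 with the crypt score, -0.51 to 0.064 with 1 library left out), both highest without SPF replicate 4. The other named genes kept their sign under every alternative that gave them a value, and the cause of these changes was not tested. Of the list medians under 17 alternatives, 67 moved by more than the spread between libraries of a group and 579 did not. Depth limits genes near 3 counts, such as Saa1 in GF replicate 1.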

Other observations

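Metallothioneins, which bind zinc and copper, were higher in GF. Mt1 measured 33 and 21.6 CPM in SPF and 62 and 39.9 CPM in GF (log2 fold change 0.90, SE 0.31). Its neighbour Mt2 on chromosome 8 measured 5.17 and 2.26 CPM against 20.4 and 5.9 CPM (log2 fold change 1.82, SE 0.65). Neither group overlapped the other, but GF replicate 3 lay close to SPF replicate 3 for both genes. Pfkfb3, an activator of glycolysis, was lower in GF at 62.5 and 118 CPM in SPF and 14.6 and 31 CPM in GF (log2 fold change -1.99, SE 0.45). Areg, amphiregulin, an epidermal growth factor receptor ligand, measured 30.4 and 62.9 CPM against 16.8 and 18 CPM (log2 fold change -1.42, SE 0.35). These genes were chosen after their values were seen.

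Some genes differed far more within a group than between groups. Between the GF libraries the largest ratios among genes at 20 CPM or more were those of the class II genes H2-Aa and Cd74, the ribosomal RNA gene CT010467.1 and AY036118, which lies within its bounds, and the Paneth cell defensin Defa21. CT010467.1 measured 11791 and 5892 CPM against 2579 and 34061 CPM, GF replicate 3 being the highest of the 4. Between the SPF libraries the 5 largest ratios were all Paneth cell defensins, with Defa2 at 131 CPM in SPF replicate 3 and 0 in SPF replicate 4, beside 571 and 70 CPM in GF. The defensin genes are near-identical copies between which RSEM splits reads, so single members are uncertain.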
